A study of Mus musculus with 15 samples.

Results

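CC chemokines are small secreted proteins named for a pair of adjacent cysteines near their amino end. The 9 genes *Ccl2*, *Ccl3*, *Ccl4*, *Ccl7*, *Ccl8*, *Ccl20*, *Ccl22*, *Ccl25* and *Ccl28* were followed in mouse colon RNA, taken by symbol from a table of 32544 genes. All 9 passed the filter on low counts and were among the 17477 genes tested.

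Whole colon was taken from mice 8 to 12 weeks old that differed in *Tert*, the gene of the reverse transcriptase subunit of telomerase. KO mice lacked *Tert*, VAA mice carried an allele whose product has no enzyme activity, and WT mice carried the intact gene. The DSS groups drank 3% dextran sulfate sodium, a polymer that injures the colonic epithelium, for 4 days and plain water for 4 more, and colon was taken on day 8. Each genotype had 3 DSS and 2 untreated libraries, 15 in all. The sources used here do not give the strain, the deleted part of *Tert* or the generation of the KO mice. Nor do the labels say whether each library came from its own animal, so in most groups the spread behind the *P* values may be technical.

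Library totals ran from 10.56 M to 17.54 M counts. KO libraries held 0 or 1 *Tert* count, VAA libraries 7 to 29 and WT libraries 23 to 40, in the order of the genotype labels. VAA DSS replicate 3 stood apart: it had the lowest total, and 3 genes listed with the same values took 13.59% of it, against 4.145% to 9.648% elsewhere. KO untreated replicate 2 and WT untreated replicate 2 held 868 and 914 counts of the Y-linked gene *Ddx3y*, against 5 to 20 in the other libraries, so both came from males and the DSS libraries from females. The 2 untreated KO libraries, and the 2 untreated WT libraries, thus came from different animals. Epithelial markers summed to 7223 to 12540 CPM (counts-per-million) in these libraries, and the Paneth cell gene *Defa24* was at 0 throughout. Small intestinal epithelium markers summed to 18.14 to 47.51 CPM in KO DSS, 7.57 to 8.733 in VAA DSS and 7.435 to 9.789 in WT DSS libraries, against 20.43 to 27.68 untreated.

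CC chemokines bind receptors of the Ccr family on leukocytes and draw those cells along a gradient. *Ccl2* and *Ccl7* encode attractants of monocytes that act through Ccr2, the receptor that monocytes need to leave bone marrow. Mouse *Ccl8* encodes a ligand of Ccr8. *Ccl3* and *Ccl4* encode macrophage inflammatory proteins, and Ccl3 acts through Ccr1 among others. *Ccl20* is made by the epithelium over lymphoid follicles and draws Ccr6-bearing lymphocytes and dendritic cells, and *Ccl22* is made by dendritic cells and draws Ccr4-bearing T cells. *Ccl25* and *Ccl28* are epithelial and bind Ccr9, a gut homing receptor of lymphocytes, and Ccr10, which IgA plasma cells carry.

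In the GENCODE annotation of mm10, 5 of the genes lie in groups on chromosome 11. *Ccl2* (chr11:82035571-82037453), *Ccl7* (chr11:82045712-82047525) and *Ccl8* (chr11:82115185-82116799) all lie on the plus strand, with gaps of 8.3 kb and 67.7 kb. *Ccl3* (chr11:83647844-83649355, minus strand) and *Ccl4* (chr11:83662584-83664683, plus strand) lie 13.2 kb apart, 1.6 Mb from the first group. RefSeq gives *Ccl4* a span that starts inside *Ccl3* on the opposite strand, and whether the counting used strand is not stated, so reads of that stretch could fall to either gene. *Ccl20* lies at chr1:83116766-83119167, *Ccl22* at chr8:94745590-94751699, *Ccl25* at chr8:4325210-4360020 and *Ccl28* at chr13:119623819-119654359, all on the plus strand, the last 46.0 Mb from *Tert*. *Ccl25* has 6 exons and each of the others has 3.

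Start site sequences were found in RefSeq (GRCm38.p6) for 6 of the 9 genes, and 3 are shown, chosen for the genotypes in which their genes were called with DSS: *Ccl8*, called in KO and WT colon, *Ccl3*, called in VAA and WT colon, and *Ccl20*, called in none. The differences of KO and VAA from WT colon in these DSS effects did not pass the test. The difference between KO and VAA colon in them was not tested. Each is the 250 bases before the start, 5′ to 3′ on the gene's own strand. Capitals mark a TATAAA box in *Ccl8* and a kappaB motif, the binding sequence of NF-kappaB, in *Ccl20*; *Ccl3* held neither.
Ccl8 (chr11:82114935-82115184, plus strand): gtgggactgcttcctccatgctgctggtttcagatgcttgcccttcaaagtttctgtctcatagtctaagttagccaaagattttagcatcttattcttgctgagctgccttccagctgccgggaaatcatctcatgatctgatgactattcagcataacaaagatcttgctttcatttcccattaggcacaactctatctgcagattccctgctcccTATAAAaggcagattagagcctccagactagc
Ccl3 (chr11:83649379-83649628, minus strand): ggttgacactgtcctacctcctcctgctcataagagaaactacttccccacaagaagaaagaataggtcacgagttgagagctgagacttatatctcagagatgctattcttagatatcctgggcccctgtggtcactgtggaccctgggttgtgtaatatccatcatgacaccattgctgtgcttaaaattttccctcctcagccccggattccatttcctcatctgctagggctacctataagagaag
Ccl20 (chr1:83116516-83116765, plus strand): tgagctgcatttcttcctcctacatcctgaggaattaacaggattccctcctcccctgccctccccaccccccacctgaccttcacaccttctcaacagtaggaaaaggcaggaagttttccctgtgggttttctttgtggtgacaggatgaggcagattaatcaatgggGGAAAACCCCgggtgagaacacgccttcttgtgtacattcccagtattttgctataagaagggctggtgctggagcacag

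The TATAAA letters of *Ccl8* lay 32 to 27 bases before the start. They were found, on either strand, in 12.4% of the 32851 RefSeq windows of the same length, and among these genes also before the second start of *Ccl25*, at -16 to -11. The kappaB motif of *Ccl20* lay on the minus strand at -80 to -71, and 5.93% of windows held one. The AP-1 letters TGANTCA were in 6.75% of windows and in none of the 6 genes' windows. A match describes letters in this window, and no match says only that they are not in it.

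The epithelial pair was the most abundant in every group. Levels are counts-per-million (CPM), scaled between libraries by trimmed means, and to compare genes they were divided by the length of the longest coding transcript in kb. *Ccl28* stood first in all 6 groups and *Ccl25* second. In KO DSS colon *Ccl28* had 55.5 ± 10.02 CPM per kb, *Ccl25* 18.6 ± 1.7 and *Ccl8* 7.58 ± 1.25 (SD, n = 3), and the other 6 lay between 0.632 and 1.24, where the ranges of mean ± SD of neighbours overlapped. In VAA DSS colon *Ccl28* had 32.4 ± 12.0 and *Ccl25* 17.9 ± 1.25 CPM per kb, and the rest ran down from *Ccl7* at 7.37 ± 1.4 to *Ccl22* at 0.678 ± 0.168, with neighbours overlapping in mean ± SD. In WT DSS colon *Ccl28* had 38.1 ± 3.72 CPM per kb, *Ccl25* 19.7 ± 1.36 and *Ccl2* 10.7 ± 8.73, and the mean ± SD of *Ccl2* overlapped that of *Ccl25* and *Ccl8*, as *Ccl7* overlapped *Ccl8* and *Ccl4*. *Ccl4* at 5.19 ± 0.89, *Ccl3* at 3.17 ± 0.72, *Ccl20* at 1.88 ± 0.537 and *Ccl22* at 0.685 ± 0.0429 did not overlap. In untreated colon the 7 genes other than *Ccl28* and *Ccl25* all averaged 2.27 CPM per kb or less, against 21.0 to 54.4 for those 2.

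DSS against untreated colon asked which chemokines changed in colitis. The monocyte attractants *Ccl2* and *Ccl7* rose in VAA and WT colon and not by the test in KO colon, whereas *Ccl8* rose in KO and WT colon. *Ccl3* and *Ccl4* rose in VAA and WT colon. *Ccl20*, *Ccl22*, *Ccl25* and *Ccl28* passed the test in no genotype, although *Ccl20* was called in WT colon once sex was a covariate. A gene was called where its Benjamini-Hochberg adjusted *P*, over all genes of a comparison, was under 0.05 in edgeR's quasi-likelihood test. Fold changes are log2 with the standard error of the fit. Statements on overlap describe the single libraries, and the share of all genes without overlap was not counted.

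**Figure D1:**
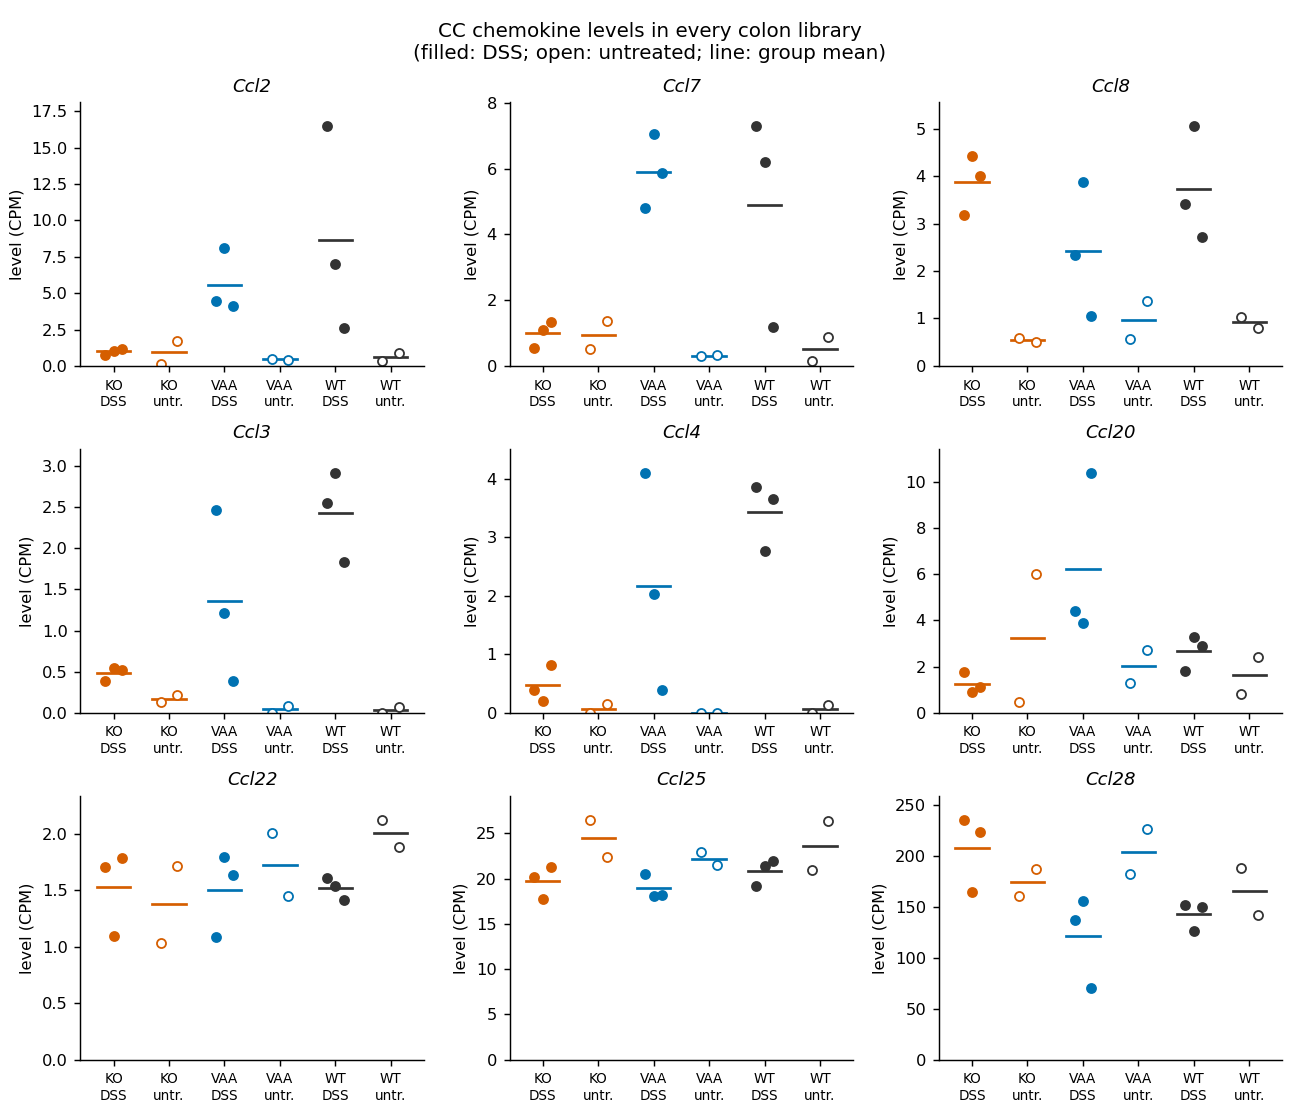
Level of each CC chemokine in counts-per-million (CPM, vertical axis, from 0) in every library of the 6 groups, with filled points for DSS, open points for untreated colon and a line at the group mean. *Ccl2* lies between 0.775 and 1.19 CPM in KO DSS libraries and between 2.60 and 16.5 in WT DSS libraries, while *Ccl8* lies between 3.18 and 4.43 in KO DSS libraries and between 2.71 and 5.06 in WT DSS libraries.

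*Ccl2*, the main ligand of Ccr2, had 0.775, 1.02 and 1.19 CPM in KO DSS libraries, against 0.129 and 1.71 in untreated KO libraries. It had 4.45, 8.09 and 4.13 CPM in VAA DSS libraries, against 0.501 and 0.426 in untreated VAA libraries, and 16.5, 6.97 and 2.60 CPM in WT DSS libraries, against 0.342 and 0.875 in untreated WT libraries. The DSS libraries lay above the untreated ones without overlap in VAA and WT colon, and between the 2 untreated libraries in KO colon. *Ccl7*, which shares the receptor, had 0.542, 1.09 and 1.34 CPM in KO DSS libraries, against 0.517 and 1.36 in untreated KO libraries. Its levels were 4.81, 7.05 and 5.85 CPM in VAA DSS libraries, against 0.286 and 0.340 in untreated VAA libraries, and 7.29, 6.21 and 1.18 CPM in WT DSS libraries, against 0.137 and 0.875 in untreated WT libraries. The groups overlapped in KO colon alone among the 3 genotypes, and WT DSS replicate 3 was the lowest WT DSS library for both genes.

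By edgeR's test the log2 change of *Ccl2* with DSS was 0.14 ± 0.88 in KO (Benjamini-Hochberg adjusted *P* = 0.94), 3.56 ± 0.96 in VAA (0.015) and 3.81 ± 0.87 in WT colon (0.0075). For *Ccl7* it was 0.10 ± 0.78 in KO (edgeR Benjamini-Hochberg adjusted *P* = 0.95), 4.21 ± 0.94 in VAA (0.0042) and 3.24 ± 0.80 in WT colon (0.01). The KO values rest on the untreated pair: without KO untreated replicate 2, the male library, *Ccl2* had a log2 change of 2.87 (adjusted *P* = 0.24) and *Ccl7* one of 0.94 (0.65), and without KO untreated replicate 1 changes of -0.77 (0.68) and -0.44 (0.85). Without VAA untreated replicate 1 the VAA calls on *Ccl2* (3.69, edgeR adjusted *P* = 0.11) and *Ccl7* (4.08, 0.058) were lost, and without VAA untreated replicate 2 that on *Ccl2* (3.46, 0.11). The WT calls were lost without WT untreated replicate 1, for *Ccl2* at 3.28 (edgeR adjusted *P* = 0.09) and *Ccl7* at 2.45 (0.11). Without VAA DSS replicate 3 the VAA changes were 3.72 for *Ccl2* and 4.21 for *Ccl7*. Across the 15 libraries the log2 levels of *Ccl2* and *Ccl7* had a correlation of 0.93, and of 0.92 over the 9 DSS libraries, given as a description since these libraries share groups.

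*Ccl8*, which lies 67.7 kb from *Ccl7* and encodes a ligand that in mouse acts mainly through Ccr8, had a different pattern. It had 3.18, 4.43 and 4.01 CPM in KO DSS libraries, against 0.582 and 0.499 in untreated KO libraries. Levels were 2.35, 3.87 and 1.06 CPM in VAA DSS libraries, against 0.572 and 1.36 in untreated VAA libraries, and 3.43, 5.06 and 2.71 CPM in WT DSS libraries, against 1.03 and 0.807 in untreated WT libraries. KO and WT groups did not overlap between treatments, and the VAA groups overlapped through VAA DSS replicate 3. *Ccl8* rose by 2.82 ± 0.55 in KO (edgeR Benjamini-Hochberg adjusted *P* = 0.0075) and by 2.01 ± 0.51 in WT colon (0.012). In VAA colon its change was 1.37 ± 0.52 (edgeR Benjamini-Hochberg adjusted *P* = 0.081), and 1.70 (0.012) without VAA DSS replicate 3. The KO call was lost without KO untreated replicate 1 (2.94, edgeR adjusted *P* = 0.075) or 2 (2.72, 0.065), and the WT call without WT untreated replicate 1 (2.18, 0.072) or 2 (1.85, 0.1). Over the 9 DSS libraries the log2 level of *Ccl8* had correlations of -0.06 with *Ccl2* and -0.18 with *Ccl7*.

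*Ccl3*, which encodes macrophage inflammatory protein 1 alpha, was close to the counting floor in untreated colon. KO DSS libraries held 5, 8 and 7 counts of it, against 2 and 3 in untreated KO libraries. VAA DSS libraries held 41, 21 and 4, against 0 and 1 in untreated VAA libraries, and WT DSS libraries held 35, 38 and 31, against 0 and 1 in untreated WT libraries. *Ccl4*, which encodes the beta form, had 5, 3 and 11 counts in KO DSS libraries, against 0 and 2 in untreated KO libraries. It had 68, 35 and 4 counts in VAA DSS libraries, against 0 and 0 in untreated VAA libraries, and 53, 36 and 62 in WT DSS libraries, against 0 and 2 in untreated WT libraries. For both genes DSS libraries lay above untreated ones in each genotype, and VAA DSS replicate 3 was far below the other VAA DSS libraries.

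In WT colon *Ccl3* had 104 counts under DSS and 1 untreated, a ratio of 70.2 (exact 95% interval 12.3 to 2800, counting error only), and *Ccl4* had 151 and 2, a ratio of 50.9 (13.9 to 424). In VAA colon *Ccl3* had 66 counts under DSS and 1 untreated, a ratio of 38.3 (6.64 to 1540), and *Ccl4* had 107 and 0, so it was at least 20.7-fold higher against a floor of 3 counts over the untreated group. The edgeR Benjamini-Hochberg adjusted *P* was 0.0011 for *Ccl3* and 0.0048 for *Ccl4* in WT colon, and 0.0045 and 0.0061 in VAA colon. In KO colon *Ccl3* had a log2 change of 1.47 ± 0.90 (edgeR Benjamini-Hochberg adjusted *P* = 0.29). *Ccl4* had 19 counts in KO DSS colon and 2 in untreated KO colon, a ratio of 6.83 (1.65 to 60.5), with an edgeR adjusted *P* of 0.23. Without VAA untreated replicate 1 the adjusted *P* was 0.066 for *Ccl3* and 0.058 for *Ccl4* in VAA colon, and without WT untreated replicate 1 it was 0.06 for *Ccl4* in WT colon. Without VAA DSS replicate 3 it was 5e-04 for *Ccl3* and 0.00054 for *Ccl4* in VAA colon. The log2 levels of *Ccl3* and *Ccl4* had a correlation of 0.96 over 15 libraries and 0.93 over the 9 DSS libraries.

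*Ccl20*, the ligand of Ccr6, differed widely between untreated libraries. It had 1.78, 0.887 and 1.11 CPM in KO DSS libraries, against 0.453 and 5.99 in untreated KO libraries. Levels were 4.39, 3.87 and 10.4 CPM in VAA DSS libraries, against 1.29 and 2.72 in untreated VAA libraries, and 1.82, 3.29 and 2.89 CPM in WT DSS libraries, against 0.820 and 2.42 in untreated WT libraries. The VAA groups did not overlap, and KO untreated replicate 2, a male library, was above every KO DSS library. The changes were -1.34 ± 0.80 in KO (edgeR Benjamini-Hochberg adjusted *P* = 0.3), 1.62 ± 0.78 in VAA (0.18) and 0.72 ± 0.80 in WT colon (0.54). The KO value turned to 1.46 (edgeR adjusted *P* = 0.37) without KO untreated replicate 2 and to 0.68 (0.62) with sex as a covariate. Averaged over genotypes, *Ccl20* had a log2 change of 0.33 ± 0.46 (edgeR Benjamini-Hochberg adjusted *P* = 0.6). It was called higher at 1.26 (0.027) without KO untreated replicate 2, at 1.59 (0.013) without both male libraries and at 1.53 (0.018) with sex as a covariate. In WT colon the sex covariate moved it to 2.29, with an edgeR adjusted *P* of 0.037. The share of sex in the *Ccl20* values was not tested beyond these fits, and that of lymphoid follicles was not tested.

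*Ccl22*, the ligand of Ccr4, had 1.09 to 1.78 CPM in KO DSS libraries, against 1.03 to 1.71 in untreated KO libraries. It had 1.08 to 1.79 CPM in VAA DSS libraries, against 1.45 to 2.00 in untreated VAA libraries, and 1.42 to 1.60 CPM in WT DSS libraries, against 1.88 to 2.12 in untreated WT libraries. WT groups did not overlap, and the others did. Its changes were 0.15 ± 0.36 in KO, -0.21 ± 0.36 in VAA and -0.40 ± 0.35 in WT colon, with edgeR Benjamini-Hochberg adjusted *P* of 0.83, 0.74 and 0.42. The 95% intervals of these changes ran from -0.62 to 0.93 in KO, from -0.98 to 0.56 in VAA and from -1.15 to 0.35 in WT colon.

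*Ccl25*, the ligand of Ccr9, was steady from library to library. It had 20.2, 17.7 and 21.3 CPM in KO DSS libraries, against 26.4 and 22.4 in untreated KO libraries. The levels were 20.5, 18.1 and 18.2 CPM in VAA DSS libraries, against 23.0 and 21.5 in untreated VAA libraries, and 19.2, 21.4 and 21.9 CPM in WT DSS libraries, against 20.9 and 26.3 in untreated WT libraries. KO and VAA groups did not overlap, and its change was -0.31 ± 0.15 in KO, -0.23 ± 0.15 in VAA and -0.18 ± 0.15 in WT colon, with edgeR Benjamini-Hochberg adjusted *P* of 0.2, 0.31 and 0.39. Averaged over genotypes *Ccl25* fell by 0.24 ± 0.09 on the log2 scale (edgeR Benjamini-Hochberg adjusted *P* = 0.037). That call was lost without KO DSS replicate 1 (-0.24, edgeR adjusted *P* = 0.056) or 2 (-0.21, 0.078), VAA DSS replicate 2 (-0.23, 0.057), WT DSS replicate 1 (-0.22, 0.071) or 2 (-0.25, 0.052), KO untreated replicate 1 (-0.20, 0.12), VAA untreated replicate 1 (-0.22, 0.093) or 2 (-0.26, 0.055) and WT untreated replicate 2 (-0.18, 0.14). It was also lost without a filter on low counts (-0.23, edgeR adjusted *P* = 0.084), with sex as a covariate (-0.23, 0.11) and without both male libraries (-0.22, 0.11).

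*Ccl28*, the mucosal ligand of Ccr10, had 234.8, 164.8 and 222.9 CPM in KO DSS libraries, against 160.9 and 186.8 in untreated KO libraries. Its levels were 137.1, 155.5 and 70.5 CPM in VAA DSS libraries, against 181.6 and 225.7 in untreated VAA libraries, and 151.3, 126.5 and 149.8 CPM in WT DSS libraries, against 188.0 and 141.9 in untreated WT libraries. VAA groups did not overlap, and VAA DSS replicate 3 was the lowest of all 15 libraries. The change was 0.26 ± 0.27 in KO (edgeR Benjamini-Hochberg adjusted *P* = 0.59), -0.75 ± 0.27 in VAA (0.061) and -0.21 ± 0.27 in WT colon (0.59). The VAA value was called lower without VAA DSS replicate 2 (-0.97, edgeR adjusted *P* = 0.021) and was -0.48 (0.069) without VAA DSS replicate 3. It was also called without a filter on low counts (-0.75, edgeR adjusted *P* = 0.049), by DESeq2 (-0.77, 0.03) and by limma on the deposited log2 values (-0.84, 0.04).

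**Figure D2:**
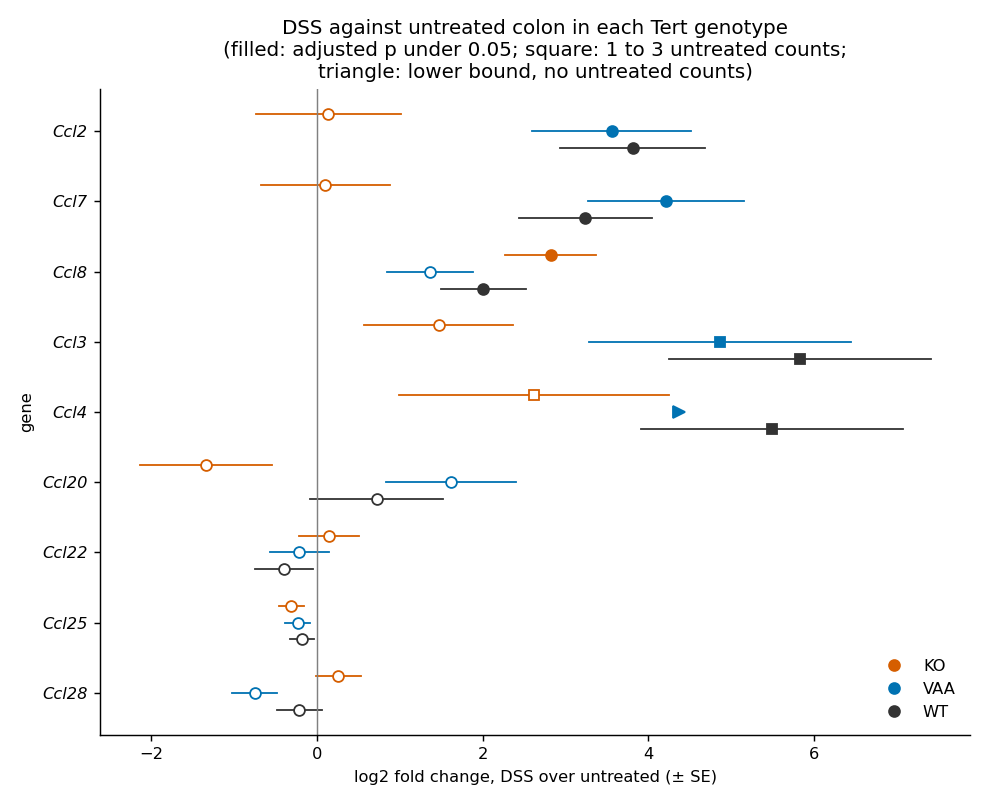
Log2 fold change of DSS over untreated colon (horizontal axis, bars ± SE) for the 9 chemokines, with KO, VAA and WT colon from top to bottom within a gene and filled symbols where the edgeR adjusted *P* was under 0.05. *Ccl2* and *Ccl7* sit at 0.14 and 0.10 in KO and between 3.24 and 4.21 in VAA and WT colon; squares mark 1 to 3 untreated counts and the triangle a lower bound.

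In counts, 1 of 9 chemokines was called in KO colon, where 10.7% of all genes were called in either direction and 5.59% were higher. In VAA colon 4 of 9 were called, all higher, against 20.4% of all genes in either direction, 10.9% higher and 9.54% lower. In WT colon 5 of 9 were called, all higher, against 26.6% and 14.1%. The median log2 change of the 9 was 0.15 in KO, 1.62 in VAA and 2.01 in WT colon. That of all genes tested was 0, 0.06 and -0.01. The middle genes were *Ccl22*, *Ccl20* and *Ccl8*. *Ccl3* and *Ccl4*, with their low counts, lay above the middle gene in each genotype, so the medians depend on their inclusion. Averaged over genotypes 6 of 9 were called, 5 higher and *Ccl25* lower, against 42.6% of all genes, with 22.5% higher and 20% lower. The averaged change was 2.50 ± 0.52 for *Ccl2*, 2.51 ± 0.49 for *Ccl7* and 2.07 ± 0.30 for *Ccl8*, with edgeR Benjamini-Hochberg adjusted *P* of 0.0017, 0.00088 and 0.00013. The averaged calls on *Ccl2*, *Ccl7*, *Ccl8*, *Ccl3* and *Ccl4* held in the 22 alternatives run.

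Cell markers moved with DSS. In whole tissue, fewer cells of a type and less RNA per cell cannot be told apart. Neutrophil markers summed to 110.4 to 153.5 CPM in KO DSS, 377.9 to 749.8 in VAA DSS and 322.7 to 398 in WT DSS libraries, and to 78.15 to 118 CPM in the untreated libraries. Of 8 neutrophil markers 5 rose in KO, 8 in VAA and 5 in WT colon. *Ly6g* held much of these sums, at 72.77 to 80.41 CPM on average in the untreated groups and 491.7 in VAA DSS replicate 3. The calgranulin gene *S100a8* averaged 3.14 CPM in KO DSS colon against 0.197 untreated, 97.07 in VAA DSS against 0.114 untreated, and 69.34 in WT DSS against 0.102 untreated. Monocyte and macrophage markers summed to 264.5 to 362.2 CPM in KO DSS, 443.1 to 659.2 in VAA DSS and 340.4 to 545.4 in WT DSS libraries, against 203.6 to 301.5 in untreated libraries. Of 12 such markers 2 rose and 1 fell in KO, 6 rose and 1 fell in VAA, and 5 rose and 1 fell in WT colon. No monocyte or macrophage marker was at 0 in a group, and the neutrophil collagenase gene *Mmp8* was at 0 in each untreated group. Smooth muscle markers fell in 5 of 8 in KO, 7 of 8 in VAA and 8 of 8 in WT colon, to sums of 552.8 to 2339 CPM in DSS libraries against 3707 to 6611 in untreated ones. Follicle and M cell markers, the setting of *Ccl20*, summed to 44.26 to 130.7 CPM in KO DSS, 150.4 to 169.1 in VAA DSS and 142.5 to 163.9 in WT DSS libraries, against 28.01 to 71.33 untreated. Of that list, *Tnfaip2* averaged 10.45 CPM in KO DSS, 53.25 in VAA DSS and 41.7 in WT DSS colon, and *Cxcl13* 8.95, 43.45 and 50.19. The complement receptor gene *Cr2*, in the same list, averaged 24.3, 20.62 and 22.42 CPM, and *Spib* 8.22, 6.45 and 7.78, in the same order. T and NK cell markers rose in 6 of 8 in KO, 1 of 8 in VAA and 5 of 8 in WT colon. Their sums were 34.54 to 36.43 CPM in KO DSS, 16.79 to 28.78 in VAA DSS and 20.64 to 27.27 in WT DSS libraries, against 12.34 to 18.22 untreated. Of 8 B and plasma cell markers 2 fell in KO, 2 in VAA and 1 in WT colon, and 0 rose. The median log2 changes of this list were 0.54, 0.02 and 1.02 in that order. The markers that fell were antibody genes of plasma cells, *Jchain* in all 3 genotypes and *Igha* in KO and VAA colon. The other markers of the list, *Mzb1* and *Derl3* among them, passed the test in no genotype. *Igha* averaged 83.84 CPM in KO DSS colon against 363.5 untreated, 76.23 in VAA DSS against 267.5 untreated, and 64.69 in WT DSS against 141.2 untreated. The part of these cells in the chemokine changes was not tested.

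**Figure D3:**
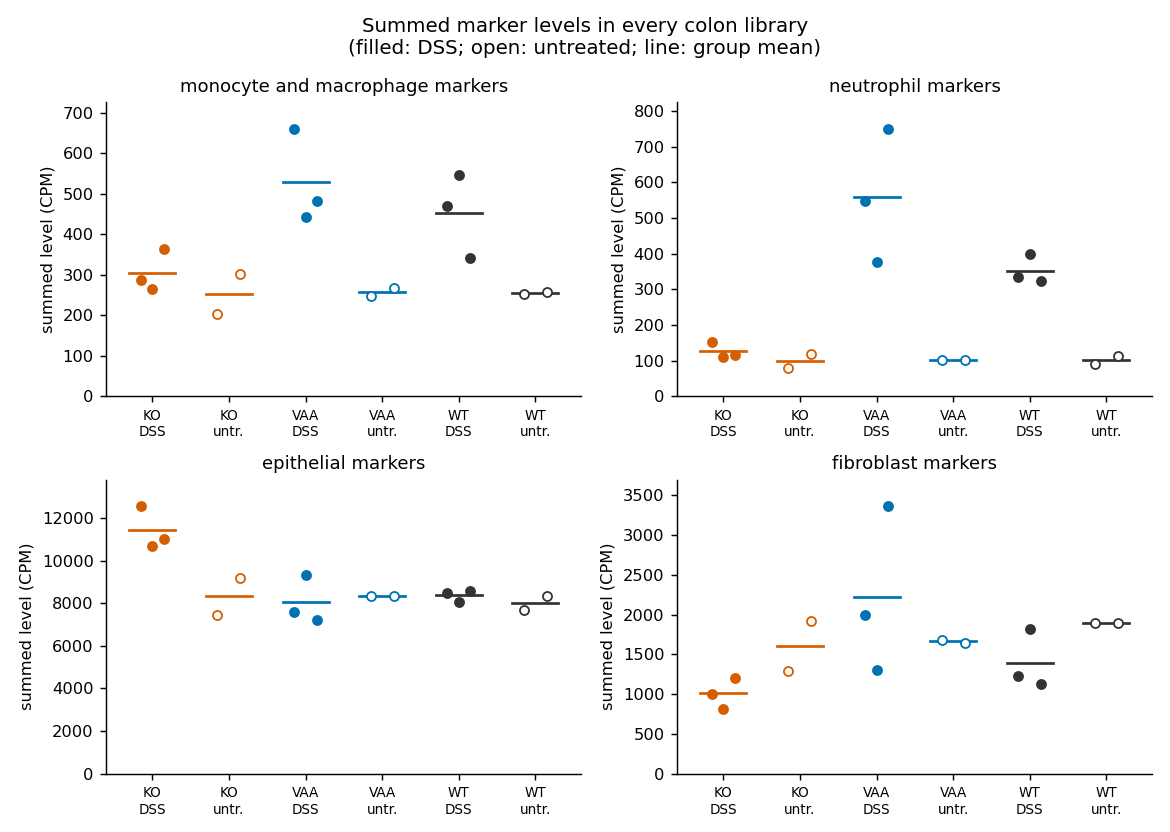
Summed level of 4 marker lists (CPM, vertical axis, from 0) in every library, with filled points for DSS, open points for untreated colon and a line at the group mean. Neutrophil sums lie between 110.4 and 153.5 CPM in KO DSS libraries and between 322.7 and 749.8 in VAA and WT DSS libraries.

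KO against WT colon under DSS asked whether loss of *Tert* changed the chemokines of colitis. *Ccl2*, *Ccl3* and *Ccl4* were lower in KO DSS colon, and none of the 9 was called higher. *Ccl2* averaged 0.996 ± 0.208 CPM in KO DSS and 8.68 ± 7.10 in WT DSS colon (SD, n = 3 each). *Ccl3* averaged 0.484 ± 0.0849 CPM in KO DSS and 2.43 ± 0.552 in WT DSS colon, and *Ccl4* averaged 0.470 ± 0.315 and 3.43 ± 0.588. The 3 KO libraries lay below the 3 WT libraries for each of these genes. The 3 calls stand beside 5.67% of all genes called, 2.46% lower and 3.21% higher, and the median log2 change was -1.08 for the 9 and -0.01 for all genes.

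By edgeR's test *Ccl2* had a log2 change of -3.11 ± 0.71 (Benjamini-Hochberg adjusted *P* = 0.026), *Ccl3* one of -2.30 ± 0.59 (0.037) and *Ccl4* one of -2.86 ± 0.77 (0.047). *Ccl7* averaged 0.990 ± 0.407 CPM in KO DSS and 4.89 ± 3.26 in WT DSS colon, a change of -2.28 ± 0.63 with an edgeR adjusted *P* of 0.053. It was called lower by DESeq2 (-2.30, 0.0088), without a filter on low counts (-2.27, 0.036), in a fit of the KO and WT DSS groups alone (-2.26, 0.041), with sex as a covariate (-2.28, 0.042) and without WT DSS replicate 3 (-2.75, 0.011). *Ccl8* averaged 3.87 ± 0.639 CPM in KO DSS and 3.73 ± 1.20 in WT DSS colon, a change of 0.06 ± 0.40 with a 95% interval from -0.80 to 0.93. *Ccl20* averaged 1.26 ± 0.466 CPM in KO DSS and 2.67 ± 0.760 in WT DSS colon (-1.08 ± 0.73, edgeR adjusted *P* = 0.43). *Ccl28* averaged 207.5 ± 37.5 CPM in KO DSS and 142.5 ± 13.9 in WT DSS colon (0.54 ± 0.24, edgeR adjusted *P* = 0.2), and was called higher in a fit of these groups alone (0.55, 0.027). *Ccl22* and *Ccl25* had a log2 change of 0.01 ± 0.32 and -0.08 ± 0.13.

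These calls were close to the threshold and were lost when most of the single libraries were left out, while the changes stayed negative. *Ccl2* was not called without KO DSS replicate 1 (-2.95, edgeR adjusted *P* = 0.12), 2 (-3.12, 0.082) or 3 (-3.25, 0.077), nor without WT DSS replicate 1 (-2.24, 0.11) or 2 (-3.24, 0.08). The call on *Ccl3* was lost without the same libraries, at -2.16 (edgeR adjusted *P* = 0.14), -2.39 (0.098), -2.35 (0.1), -2.26 (0.1) and -2.15 (0.16), and without both male libraries (-2.29, 0.065). *Ccl4* was not called without any 1 of the 6 libraries compared (-3.52 to -2.49, edgeR adjusted *P* from 0.077 to 0.17), nor with sex as a covariate (-2.86, 0.053) or without both male libraries (-2.85, 0.069). Beside these changes, 5 of 8 neutrophil markers and 2 of 12 monocyte and macrophage markers, *Itgam* and *Fcgr1*, were lower in KO DSS than in WT DSS colon, and the macrophage marker *Mertk* was higher. Also higher in KO DSS colon were 2 of 8 epithelial markers, *Epcam* and *Cdh1*, and 2 of 4 tested small intestinal markers, *Fabp6* and *Rbp2*. Lower were 2 of 8 fibroblast markers, *Dcn* and *Pdpn*, and 2 of 8 follicle and M cell markers, *Tnfaip2* and *Cxcl13*. The other 6 markers of either list did not pass. Among those follicle genes *Cr2* averaged 24.3 CPM in KO DSS and 22.42 in WT DSS colon, and *Tnfrsf11b* 2.58 and 4.79. *Fabp6* averaged 19.95 ± 10.99 CPM in KO DSS and 2.22 ± 0.342 in WT DSS colon (SD, n = 3 each). Their part in the result was not tested.

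KO against VAA colon under DSS compared absence of the protein with presence of an inactive one. *Ccl2*, *Ccl7* and *Ccl20* were lower in KO DSS colon and *Ccl28* was higher. The groups did not overlap for any of the 4, which adds no test to the calls. *Ccl2* averaged 0.996 ± 0.208 CPM in KO DSS and 5.56 ± 2.20 in VAA DSS colon (SD, n = 3 each), and *Ccl7* averaged 0.990 ± 0.407 and 5.91 ± 1.12. *Ccl20* averaged 1.26 ± 0.466 CPM in KO DSS and 6.21 ± 3.61 in VAA DSS colon, and *Ccl28* averaged 207.5 ± 37.5 and 121 ± 44.7. The 4 calls of 9 stand beside 15.4% of all genes called, 9.41% lower and 6.01% higher, and the medians were -1.50 for the 9 and -0.01 for all genes.

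The log2 change was -2.48 ± 0.71 for *Ccl2*, -2.56 ± 0.63 for *Ccl7*, -2.28 ± 0.72 for *Ccl20* and 0.78 ± 0.24 for *Ccl28*, with edgeR Benjamini-Hochberg adjusted *P* of 0.033, 0.017, 0.049 and 0.044. *Ccl3* had a log2 change of -1.50 ± 0.60 (edgeR adjusted *P* = 0.11) and *Ccl4* one of -2.23 ± 0.78 (0.066), and without VAA DSS replicate 3 both were called lower, at -1.89 (0.024) and -2.69 (0.012). Without that library *Ccl2* and *Ccl7* were still called (-2.64, edgeR adjusted *P* = 0.034, and -2.56, 0.025), and *Ccl20* (-1.71, 0.15) and *Ccl28* (0.51, 0.072) were not. *Ccl2* lost its call without KO DSS replicate 1 (-2.32, edgeR adjusted *P* = 0.11), 2 (-2.49, 0.098) or 3 (-2.61, 0.08) or VAA DSS replicate 2 (-2.10, 0.068), and *Ccl7* without KO DSS replicate 1 (-2.27, 0.073) or 2 (-2.63, 0.058). *Ccl20* lost it without KO DSS replicate 1 (-2.60, edgeR adjusted *P* = 0.089), 2 (-2.07, 0.16) or 3 (-2.20, 0.14) or VAA DSS replicate 1 (-2.48, 0.055), with DESeq2 size factors (-2.28, 0.051) and in a fit of these groups alone (-2.32, 0.056). *Ccl28* lost it without KO DSS replicate 1 (0.69, edgeR adjusted *P* = 0.14) or 3 (0.72, 0.12) or VAA DSS replicate 1 (0.87, 0.055), by limma (0.74, 0.053), in a fit of these groups alone (0.77, 0.16), with sex as a covariate (0.78, 0.057) and without both male libraries (0.78, 0.069). DESeq2 called *Ccl4* as well (-2.21, adjusted *P* = 0.039).

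Of the marker lists, 5 of 8 epithelial markers were higher in KO DSS than in VAA DSS colon, with sums of 10700 to 12540 CPM and 7223 to 9314 CPM. Fibroblast markers were lower in 7 of 8, with sums of 813.6 to 1208 CPM in KO DSS and 1307 to 3360 in VAA DSS libraries. Neutrophil markers were lower in 6 of 8 and monocyte and macrophage markers in 5 of 12. Their part in the levels of *Ccl28*, *Ccl2* and *Ccl7* was not tested.

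**Figure D4:**
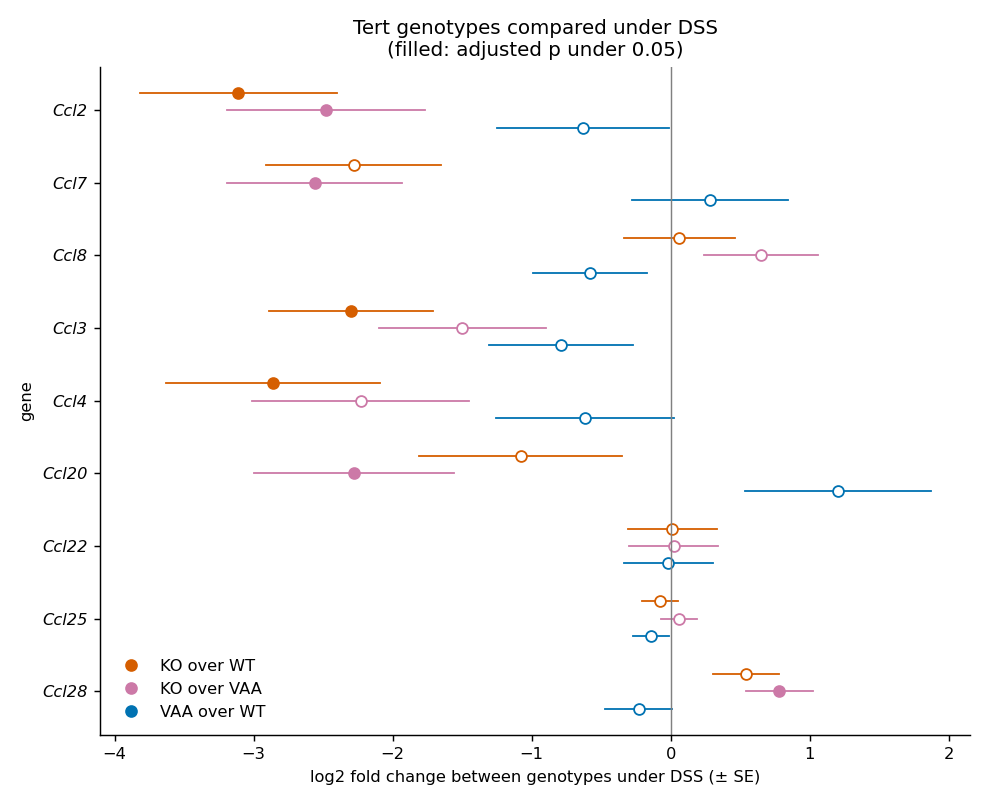
Log2 fold change between genotypes under DSS (horizontal axis, bars ± SE) for the 9 chemokines, with filled symbols where the edgeR adjusted *P* was under 0.05. *Ccl2* lies at -3.11 for KO over WT and -2.48 for KO over VAA, *Ccl8* at 0.06 and 0.65, and no symbol is filled for VAA over WT.

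VAA against WT colon under DSS compared the inactive protein with the active one. None of the 9 was called by edgeR, which called 0.00572% of all genes, and none had an unadjusted *P* under 0.05 in its test. DESeq2 called 0 of the 9. *Ccl2* averaged 5.56 ± 2.20 CPM in VAA DSS and 8.68 ± 7.10 in WT DSS colon, a change of -0.63 with a 95% interval from -1.96 to 0.70. Without WT DSS replicate 1, the library with the highest *Ccl2*, its change was 0.23. *Ccl7* had a log2 change of 0.28 (-0.93 to 1.49) and *Ccl20* one of 1.20 (-0.25 to 2.64), and the VAA libraries lay above the WT libraries for *Ccl20*. *Ccl8* had a log2 change of -0.58 (-1.47 to 0.30), *Ccl3* one of -0.79 (-1.92 to 0.33) and *Ccl4* one of -0.62 (-2.01 to 0.77).

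In untreated colon the genotypes were compared with 2 libraries each. No chemokine was called between KO and WT, VAA and WT or KO and VAA colon, none had an unadjusted *P* under 0.05, DESeq2 called 0, and 0% of all genes were called by edgeR in each pair. The intervals were wide: *Ccl2* had a log2 change of 0.56 between untreated KO and WT colon, with a 95% interval from -1.64 to 2.76, and *Ccl20* one of 0.97 (-0.89 to 2.84). *Ccl28* had a log2 change of 0.08 (-0.55 to 0.70) and *Ccl25* one of 0.05 (-0.30 to 0.40) between the same groups. KO untreated replicate 2, a male library, had higher *Ccl2*, *Ccl7* and *Ccl20* than KO untreated replicate 1, at 24 and 2, 19 and 8, and 84 and 7 counts. WT untreated replicate 2, the other male, had 13, 13 and 36 counts of these genes and WT untreated replicate 1 had 5, 2 and 12. In untreated VAA colon, with no male library, replicate 2 had 5, 4 and 32 counts and replicate 1 had 7, 4 and 18. Follicle and M cell markers summed to 65.41 CPM in replicate 2 and 28.44 in replicate 1 of untreated KO colon. The sums were 71.33 and 38.19 in untreated VAA colon and 56.91 and 28.01 in untreated WT colon. The part of follicles in these values was not tested.

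The differences of KO and VAA from WT colon in the DSS effect were tested as interactions. For KO against WT colon the interaction was -3.67 ± 1.24 for *Ccl2*, -3.14 ± 1.12 for *Ccl7* and 0.81 ± 0.75 for *Ccl8*, with edgeR Benjamini-Hochberg adjusted *P* of 0.36, 0.38 and 0.77. *Ccl2*, *Ccl7* and *Ccl3* had unadjusted *P* of 0.011, 0.014 and 0.011 in edgeR's test, which called 0% of all genes. DESeq2 called 0 of the 9. For VAA against WT colon the interaction was -0.25 ± 1.30 for *Ccl2* and 0.97 ± 1.24 for *Ccl7*, and none of the 9 had an unadjusted *P* under 0.05. So a call on *Ccl2* or *Ccl7* with DSS in WT colon, and not in KO colon, is not shown as a difference between these genotypes by this test. The difference between KO and VAA colon in the DSS effect was not tested.

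Among 11 other CC chemokines, 9 were tested. In KO colon 3 rose with DSS and 1 fell, in VAA colon 2 rose and 2 fell, and in WT colon 2 rose and 2 fell. Their median changes were -0.25, 0.23 and 0.37. Of all genes 10.7% were called in either direction in KO, 20.4% in VAA and 26.6% in WT colon. *Ccl5*, a chemokine made by T cells, rose by 2.25 ± 0.57 in KO (edgeR Benjamini-Hochberg adjusted *P* = 0.029), 3.02 ± 0.58 in VAA (0.0031) and 2.94 ± 0.56 in WT colon (0.003). *Ccl9*, a Ccr1 ligand of myeloid cells and follicle epithelium, rose by 1.01 ± 0.23 (edgeR adjusted *P* = 0.019), 1.25 ± 0.23 (0.0023) and 1.26 ± 0.23 (0.0021) in the same order. *Ccl6*, another Ccr1 ligand, had a log2 change of -0.25 ± 0.28 in KO, -1.24 ± 0.28 in VAA and -1.14 ± 0.28 in WT colon, with edgeR Benjamini-Hochberg adjusted *P* of 0.61, 0.0067 and 0.0094. *Ccl19*, a Ccr7 ligand of lymphoid tissue, had 58 counts in KO DSS and 1 in untreated KO colon, a ratio of 41.7 (95% counting interval 7.19 to 1670, edgeR adjusted *P* = 0.046). *Ccl27a*, an epithelial Ccr10 ligand, fell by 0.95 ± 0.30 in VAA (edgeR adjusted *P* = 0.037) and by 0.89 ± 0.29 in WT colon (0.035), and *Ccl11*, the eosinophil attractant eotaxin, fell by 1.37 ± 0.40 in KO colon (0.043).

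Several of these calls were lost when 1 library was left out, with the value and edgeR adjusted *P* given here. *Ccl5* lost its call in KO colon without KO DSS replicate 1 (2.33, 0.052) or 2 (1.98, 0.085) or KO untreated replicate 1 (2.39, 0.15) or 2 (2.12, 0.15), and in WT colon without WT untreated replicate 1 (2.49, 0.052). *Ccl9* lost it in KO colon without KO DSS replicate 2 (0.99, 0.055) or KO untreated replicate 1 (0.75, 0.19). *Ccl6* lost it in VAA colon without VAA untreated replicate 1 (-1.21, 0.051) and in WT colon without WT untreated replicate 1 (-1.05, 0.076). *Ccl11* lost its call in KO colon without any 1 of the 5 libraries (-1.72 to -0.89, adjusted *P* from 0.065 to 0.29), *Ccl27a* without VAA DSS replicate 1 or 2 or either untreated VAA library (-1.05 to -0.86, 0.064 to 0.18) and without any 1 of the 5 WT libraries (-0.97 to -0.79, 0.062 to 0.17). *Ccl19*, whose fitted change rests on 1 untreated count, lost its call without KO DSS replicate 1 (3.96, edgeR adjusted *P* = 0.13) or 3 (5.30, 0.069) or KO untreated replicate 1 (7.38, 0.18) or 2 (4.32, 0.2), against a fitted 5.11 with all libraries. Averaged over genotypes *Ccl27a* fell by 0.82 ± 0.17 (edgeR adjusted *P* = 0.0016), a call that held in the 22 alternatives run. *Ccl19* and *Ccl27a* have near-identical copies in the mouse genome, so their counts are uncertain.

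Under DSS *Ccl6* averaged 102.6 ± 19.0 CPM in KO and 36.97 ± 7.94 in WT colon, a change of 1.47 ± 0.25 (edgeR Benjamini-Hochberg adjusted *P* = 0.0087), and 37.31 ± 17.0 CPM in VAA colon (1.45 ± 0.25 for KO against VAA, 0.0035). Untreated *Ccl6* levels averaged 122 CPM in KO, 88.26 in VAA and 81.77 in WT colon, with no call between genotypes. *Ccl11* averaged 1.25 ± 0.0804 CPM in KO and 3.96 ± 0.857 in WT DSS colon, a change of -1.66 ± 0.36 (edgeR adjusted *P* = 0.021), and was also lower in KO than in VAA colon (-1.64 ± 0.36, 0.0098). *Ccl6* and *Ccl11* did not overlap between KO and either other genotype under DSS. The WT comparison of *Ccl6* lost its call without WT DSS replicate 2 (1.33, edgeR adjusted *P* = 0.059), and that of *Ccl11* without KO DSS replicate 1 (-1.70, 0.077), 2 (-1.61, 0.071) or 3 (-1.67, 0.069) or WT DSS replicate 1 (-1.52, 0.077) or 2 (-1.61, 0.092). In a fit of the KO and VAA DSS groups alone *Ccl11* had an adjusted *P* of 0.075.

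**Figure D5:**
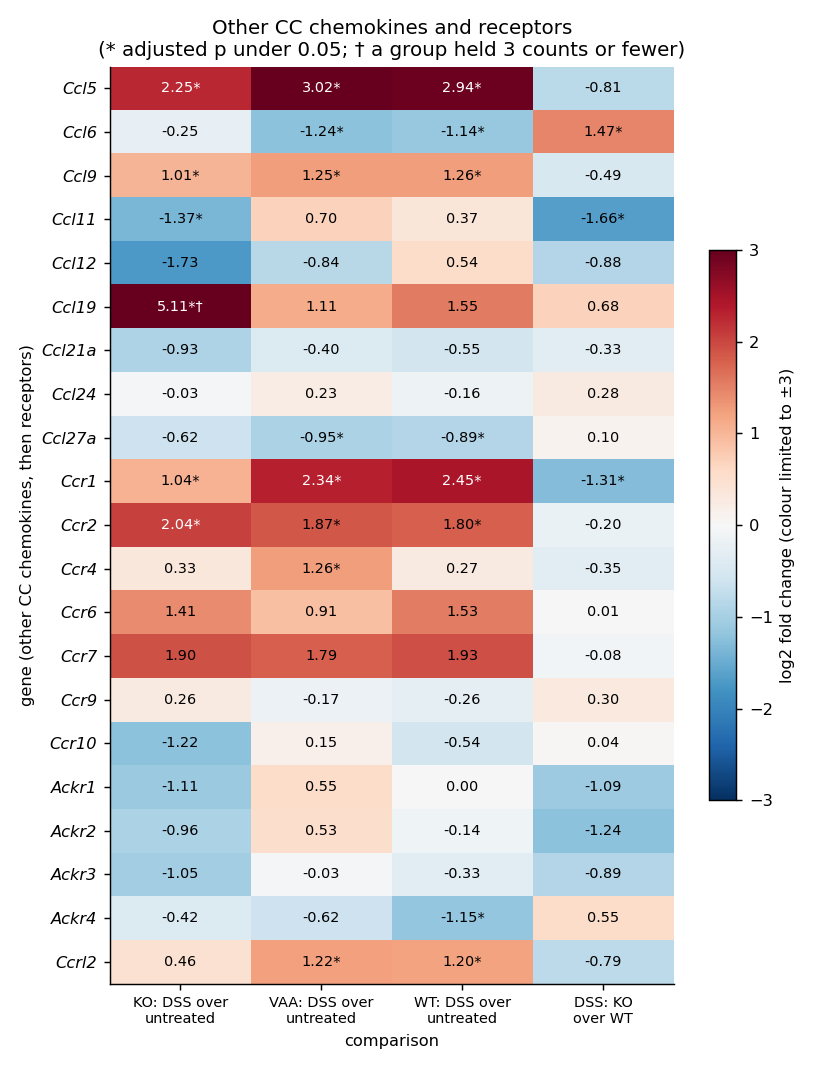
Log2 fold change of other CC chemokines and of CC and atypical receptors (rows) in 4 comparisons (columns), coloured from -3 to 3, with stars where the edgeR adjusted *P* was under 0.05 and daggers where a group held 3 counts or fewer. *Ccr1* and *Ccr2* are starred for DSS in all 3 genotypes, and *Ccr1* and *Ccl6* are starred for KO over WT under DSS, at -1.31 and 1.47.

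The receptors *Ccr1* and *Ccr2* rose in all 3 genotypes. Of 9 CC chemokine receptors 7 were tested, and 2 rose with DSS in KO, 3 in VAA and 2 in WT colon, with none falling. The shares of all genes called higher were 5.59%, 10.9% and 14.1%, and in either direction 10.7%, 20.4% and 26.6%. *Ccr2*, the receptor of Ccl2 and Ccl7, had 28.9, 29.4 and 28.5 CPM in KO DSS libraries, against 5.30 and 8.77 in untreated KO libraries. It averaged 36.93 CPM in VAA DSS against 10.11 in untreated VAA colon, and 33.17 in WT DSS against 9.50 in untreated WT colon. So *Ccr2* rose by 2.04 ± 0.38 in KO (edgeR Benjamini-Hochberg adjusted *P* = 0.0073), 1.87 ± 0.37 in VAA (0.0042) and 1.80 ± 0.37 in WT colon (0.0049). *Ccr1*, which binds Ccl3, Ccl6 and Ccl9, rose by 1.04 ± 0.28 in KO (edgeR adjusted *P* = 0.035), 2.34 ± 0.27 in VAA (0.00012) and 2.45 ± 0.28 in WT colon (0.00011). *Ccr4*, the receptor of Ccl22, rose in VAA colon by 1.26 ± 0.41 (edgeR adjusted *P* = 0.043).

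Between genotypes under DSS, *Ccr1* had 6.67, 7.02 and 7.36 CPM in KO libraries, against 17.1, 20.2 and 15.2 in WT libraries, and averaged 20.31 CPM in VAA colon. *Ccr1* was lower in KO than in WT (-1.31 ± 0.23, edgeR Benjamini-Hochberg adjusted *P* = 0.01) and than in VAA DSS colon (-1.53 ± 0.23, 0.0017). *Ccr2* had a log2 change of -0.20 ± 0.32 between KO and WT DSS colon, with an edgeR adjusted *P* of 0.78. The KO to WT call on *Ccr1* was lost without WT DSS replicate 2 (-1.20, edgeR adjusted *P* = 0.061). Its DSS call in KO colon was lost without KO DSS replicate 1 (1.09, 0.064), 2 (1.05, 0.081) or 3 (1.01, 0.08) or KO untreated replicate 1 (0.62, 0.29). *Ccr2* lost its call without KO untreated replicate 1 (1.72, edgeR adjusted *P* = 0.11) in KO, VAA untreated replicate 2 (1.76, 0.053) in VAA and WT untreated replicate 2 (1.71, 0.056) in WT colon. *Ccr4* lost it in VAA colon without VAA DSS replicate 1 (1.24, 0.089) or 2 (1.24, 0.071) or VAA untreated replicate 2 (0.80, 0.31).

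The receptors of *Ccl20*, *Ccl25* and *Ccl28* did not pass the test in any genotype. *Ccr6* changed with DSS by 1.41 ± 1.02 in KO, 0.91 ± 1.00 in VAA and 1.53 ± 1.03 in WT colon. *Ccr9*, which averaged 9.24 CPM in KO DSS colon against 7.74 untreated, had a log2 change of 0.26 ± 0.22, -0.17 ± 0.22 and -0.26 ± 0.22 in that order. *Ccr10* had a log2 change of -1.22 ± 0.55 in KO (edgeR Benjamini-Hochberg adjusted *P* = 0.16), 0.15 ± 0.56 in VAA and -0.54 ± 0.56 in WT colon. Atypical and decoy receptors bind chemokines without classical signalling. Of 5 such receptors 0 were called with DSS in KO, 1 in VAA and 2 in WT colon, against 10.7%, 20.4% and 26.6% of all genes. With 5 genes, such counts do not set the genotypes apart. *Ccrl2* rose by 1.22 ± 0.37 in VAA (edgeR Benjamini-Hochberg adjusted *P* = 0.035) and 1.20 ± 0.37 in WT colon (0.03), and *Ackr4* fell by 1.15 ± 0.32 in WT colon (0.017). *Ccrl2* lost its call without VAA DSS replicate 1 (1.20, edgeR adjusted *P* = 0.071) or 2 (1.12, 0.07) or VAA untreated replicate 1 (0.93, 0.26) or 2 (1.55, 0.068), and without WT DSS replicate 1 (0.70, 0.13) or WT untreated replicate 1 (1.20, 0.15) or 2 (1.19, 0.14). *Ackr4* lost it without WT DSS replicate 1 (-1.02, edgeR adjusted *P* = 0.062) or 2 (-1.17, 0.05) or WT untreated replicate 1 (-0.94, 0.15). *Ccrl2* averaged over genotypes rose by 0.96 ± 0.21 (edgeR adjusted *P* = 0.003) and *Ackr4* fell by 0.73 ± 0.18 (0.0057), calls that held in the 22 alternatives run. *Ackr2* was lower in KO than in VAA DSS colon (-1.80 ± 0.55, edgeR adjusted *P* = 0.039) with overlapping groups, and not without KO DSS replicate 1 (-1.56, 0.14) or 2 (-1.64, 0.13) or VAA DSS replicate 3 (-1.13, 0.16).

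For members whose mean log2 CPM reached 1, the 3 most similar genes over the 15 libraries were taken from 14068 genes by Pearson correlation of log2 CPM, as a description of libraries that share groups. The genes closest to *Ccl28* were *Fbxo18* (0.953), *Ccdc91* (0.939) and *Glod5* (0.917). *Ccl25* was closest to *Sdr42e1* (0.873), *Gm15372* (0.864) and *Ccnd2* (0.862). *Ccl20* was closest to *Fbxw7* (0.876), *Ly6g* (0.861) and *Rab31* (0.841), and was lowest against *Ccl28* among the members over the 9 DSS libraries (-0.83). *Ly6g* was listed as a neutrophil marker, yet averaged 72.77 to 80.41 CPM in the untreated groups, where *S100a8* averaged 0.102 to 0.197. VAA DSS replicate 3 had the highest level of both *Ly6g* (491.7 CPM) and *Ccl20* (10.4 CPM).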

How the data were processed

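Estimated counts by gene symbol were deposited, made with kallisto 0.46 on mm10, per the submitters' processing notes; no transcript annotation is named there. All of these deposited values were whole, so rounding changed 0 of them. A log2 CPM table of 17531 genes, also deposited, was matched within 0.018 by recomputing with a prior count of 2. Columns of other samples numbered 0.

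Counts of 15 libraries were fitted in R 4.3.3 with edgeR 4.0.16 by quasi-likelihood: trimmed mean scaling, edgeR's expression filter over 6 groups, 1 mean per group, 9 residual degrees of freedom and a common dispersion of 0.0457. The 12 comparisons were contrasts of these means, with Benjamini-Hochberg adjustment over 17477 genes. Where a group held 3 counts or fewer, the ratio of scaled counts and its exact 95% interval are given, or a bound at a floor of 3 counts; both cover counting error only. The script was tested on simulated data. Between replicates chi-square per degree of freedom ran from 10.86 to 103.8.

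The members and the 13 lists (108 genes, 100 tested) were chosen with earlier results of these data known. One gene of the receptor list is not reported here and was left out of its counts. Named were all members in each comparison, the called genes among related chemokines and receptors, at most 4 per list by smallest *P*, and for 3 members the most similar genes; receptors of the members that passed no test, and *Ccr2* between genotypes, were named after their values were seen. Alternatives were DESeq2 1.42.0 size factors, no filter, the DESeq2 test, limma 3.58.1 on the deposited log2 CPM, a fit restricted to the groups of a comparison, a block for replicate number, a sex covariate, and leaving out each library in turn; a fit without both male libraries was chosen after seeing the data. Y-linked genes gave the sex.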

Additional observations from a re-analysis of the deposited data

Results flagged for a closer look

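The KO minus VAA difference of *Ccl7* had opposite signs under the treatments. It was -2.56 under DSS, where each KO library lay below each VAA library. In untreated colon it was 1.55, and each KO library lay above each VAA library. The untreated value was not called, with an unadjusted *P* of 0.15 in edgeR's test. Its 95% interval ran from -0.71 to 3.8, so its sign is not settled and a reversal is not shown. The untreated groups held 2 libraries each, with 19 and 8 *Ccl7* counts in KO and 4 and 4 in VAA colon. The difference between the 2 was not tested.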

How the results depend on the processing

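Counts of members called changed with single libraries. Leaving out each replicate in turn gave 1 to 5 called for DSS in WT colon (5 with all libraries), 0 to 5 in VAA (4), 0 to 1 in KO colon (1) and 5 to 7 averaged over genotypes (6). For KO against WT under DSS the range was 0 to 3 (3), and for KO against VAA under DSS 0 to 4 (4). The lowest counts were 1 in WT colon without WT untreated replicate 1, 0 in VAA colon without VAA untreated replicate 1 and 0 in KO colon without either untreated KO library. For KO against WT the count was 0 without any 1 of the KO DSS libraries or WT DSS replicate 1 or 2, and for KO against VAA it was 0 when KO DSS replicate 1 was left out, 1 for KO DSS replicate 2 or 3 and 2 for VAA DSS replicate 1. A fit of only the groups compared called 2 for DSS in VAA colon, 5 for KO against WT and 2 for KO against VAA under DSS. Without both male libraries 0 were called for DSS in KO colon and 1 for KO against WT under DSS. Libraries that share a replicate number were analysed as unpaired: their residuals correlated at -0.16 to 0.31 in 33 pairs, 8 of them over 0.1, and 7 of 15 libraries lay closest to their own number. With the replicate number as a block 5 were called for DSS in WT and 5 in VAA colon, 1 in KO colon, 2 for KO against WT and 4 for KO against VAA under DSS; the block changed the calls on *Ccl8* in VAA colon (1.5, edgeR Benjamini-Hochberg adjusted *P* = 0.036) and on *Ccl4* in KO against WT (-2.84, 0.057).

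The direction turned for *Ccl20* with DSS in KO colon (0.68 with sex as a covariate, 1.46 without both male libraries, -2.25 to 1.46 over left-out replicates) and between untreated KO and WT colon (-0.85 without both male libraries, -1.82 to 1.95 over left-out replicates). Leaving out replicates also gave -1.07 to 0.23 for *Ccl2* in VAA against WT under DSS, and in the KO against WT interaction -5.98 to 0.27 for *Ccl4* and -3.04 to 0.74 for *Ccl20*. The cause was not tested. Over the single-gene values recomputed, 185 lost a call and 19 gained one. The sign turned in 96, of which 88 were uncalled and within 1 SE of 0 or had no SE. With *Ccl3* and *Ccl4* at 0 to 3 counts per untreated library, depth limits their fold changes.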
